A study of Solenopsis invicta with 64 samples.

Results

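The fire ant Solenopsis invicta carries a pair of insulin receptor genes, InR-1 (LOC105207962) and InR-2 (LOC105195102). Their reads were followed here in the brain and the ovary of 32 gynes, the winged females that have not yet mated. The members are the 2 rows with these symbols among the 15710 genes of each count file, and both were found in all 64 libraries. In the UNIL_Sinv_3.0 gene table InR-1 lies on chromosome 8 with 1 RefSeq transcript and InR-2 on chromosome 5 with 3, so neither is on chromosome 16, which holds the social supergene. Each tissue had 8 libraries in each of 4 groups: SB/SB gynes of monogyne colonies, and SB/SB, SB/Sb and Sb/Sb gynes of polygyne colonies. Polygyne colonies keep several egg-laying queens, monogyne colonies only one, and SB and Sb are the supergene's variants. All animals were caught in the field on days of mating flights, were described as reproductively mature, had received no treatment and were frozen on the spot. Each library was made by Smart-seq2 from a single brain or a single ovary. RNA came off one column kit for brains and another for ovaries, so kit and tissue cannot be told apart. The design asks how gene expression goes with social form and with supergene genotype. Title numbers recur among the 24 polygyne animals, and 7 of their 9 numbers hold all 3 genotypes. None is shared with a monogyne animal, so social form and whatever goes with that number cannot be told apart.

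Insulin receptors are tyrosine kinases of the cell surface. When an insulin-like peptide binds, they act through an insulin receptor substrate and the PI3-kinase and Akt pathway to drive growth and nutrient storage, and they restrain the transcription factor FOXO. In Drosophila, brain neurosecretory cells release insulin-like peptides, and in the ovary the pathway promotes germ line stem cell division and yolk uptake. Many insects, ants and bees among them, carry more than one insulin receptor gene. The gene table gives names for only 9 genes of the files. None of the pathway's other components (ligands, substrate, PI3-kinase, Akt, FOXO, TOR and others) is among them. Their rows could therefore not be found by name, and the 2 receptors are described alone here. A list of reproduction genes matched 1 gene, LOC105200757, which the gene table names as the vitellogenin receptor VgR. VgR carries the yolk protein vitellogenin into the growing oocyte.

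Brain libraries held 9.46 to 26.9 M counts (median 19.6) and ovary libraries 10.1 to 22.6 M (median 17.5). Left out is the ovary of 104D, a polygyne SB/SB animal, with 73573 counts and 0 reads of either receptor. Levels are given as counts per M (CPM), scaled by TMM over the other 63 libraries. The receptors were scarce. InR-1 had a median of 24.5 reads in the brain (0 to 404) and of 22 in the ovary (5 to 219), and InR-2 had 52.5 in the brain (2 to 300) and 130 in the ovary (70 to 1367). The tissue labels could be checked with VgR alone: it was higher in the ovary than in the brain of the same animal in 31 of 31 animals. In whole-tissue RNA, fewer cells of a type and less RNA per cell cannot be told apart.

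In the ovary, InR-2 was low and even in monogyne gynes and reached far higher levels in some polygyne gynes of every genotype. The 8 monogyne ovaries lay between 4.29 and 7.09 CPM (median 5.9; mean 5.57 ± 0.924, SD). In polygyne SB/SB the lowest of 7 ovaries was at 3.27 CPM, the median at 9.32 and the highest at 51.1 (mean 21.7 ± 20.5, SD). SB/Sb ovaries ran from 5.43 CPM through a median of 9.85 to 57.6 (mean 16.7 ± 17.8, SD, n = 8). Sb/Sb ovaries ran from 6.86 CPM through a median of 11.4 to 42.2 (mean 17.4 ± 13, SD, n = 8). The monogyne range lay inside that of polygyne SB/SB and overlapped the lower ends of SB/Sb and Sb/Sb. Of 23 polygyne ovaries, 16 were above the highest monogyne ovary, 1 was below the lowest, and 8 were above 2 times the highest. Such counts were made for the receptors and VgR only, not for all genes. Those above the monogyne range were 5 of 7 in SB/SB, 5 of 8 in SB/Sb and 6 of 8 in Sb/Sb.

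**Figure D1:**
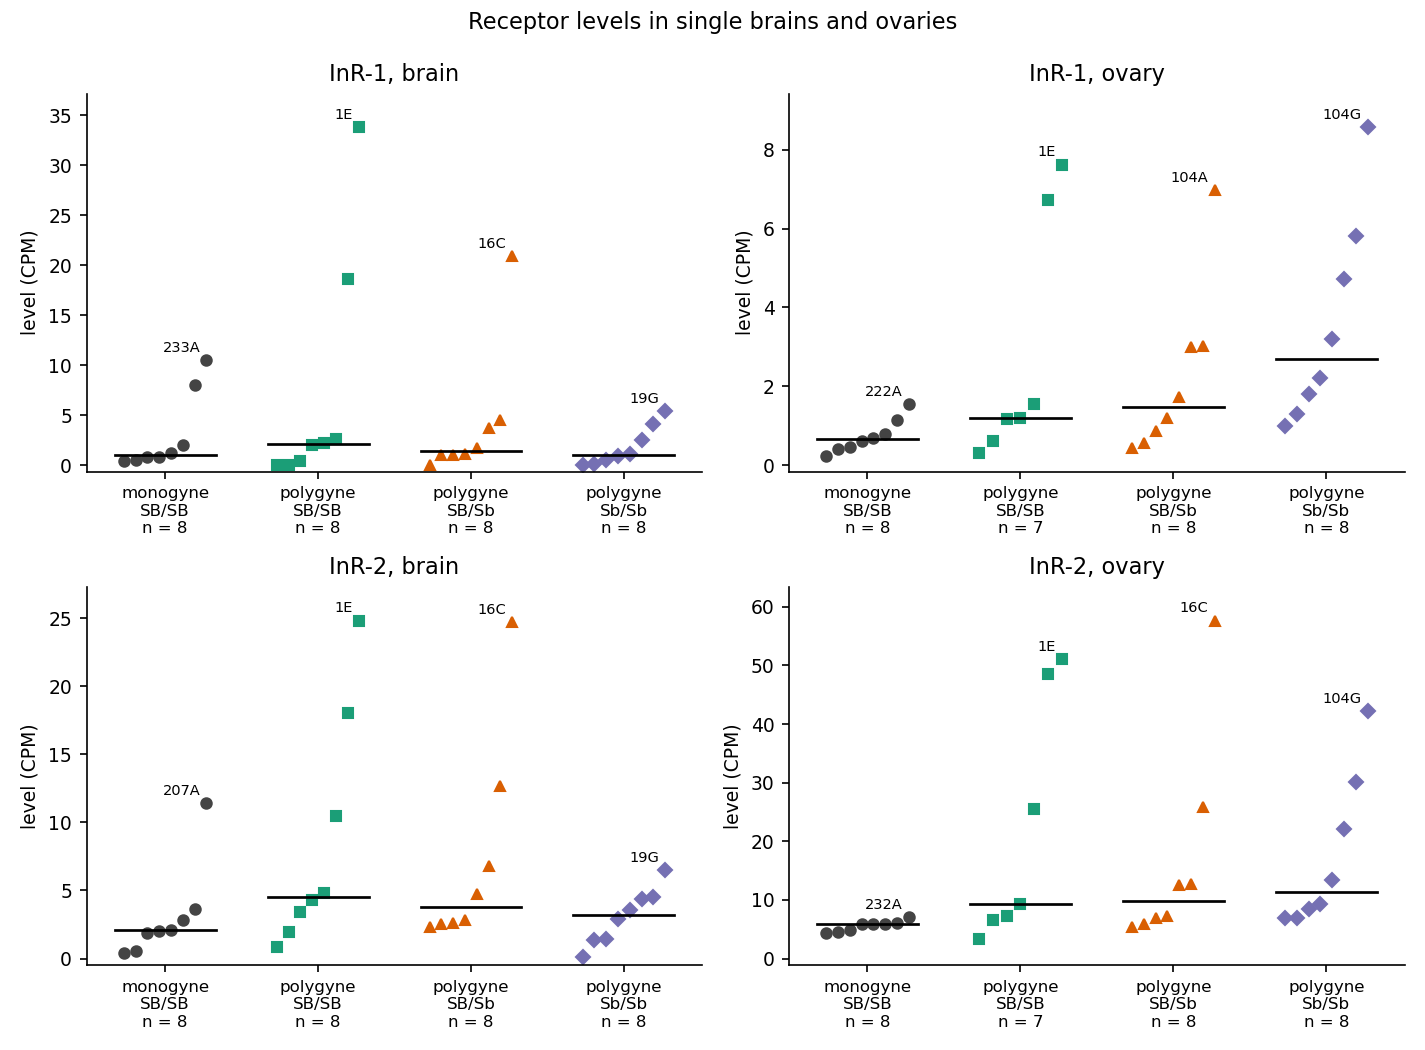
Level of each receptor (CPM, linear axes from 0) in every library by tissue and group; each point is 1 animal, horizontal bars are group medians, and the code of the highest animal in each group is printed. InR-2 in monogyne ovaries stays between 4.29 and 7.09 CPM, while the highest ovary of each polygyne group is at 42.2 CPM or more.

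Polygyne SB/Sb against monogyne SB/SB ovaries gave an InR-2 difference of 1.65 ± 0.56 (log2 fold change ± SE), or 3.14-fold. This passed the threshold of 0.05 (adjusted p = 0.0349, edgeR quasi-likelihood test, Benjamini-Hochberg over all genes), as did 22.2% of the genes tested in that comparison. The call rested on single libraries. Without animal 16C the difference was 1.02 and the adjusted p 0.155 (edgeR). Without 104A it was 1.54 and 0.068. The call was also lost without any 1 of 7 monogyne ovaries (207A, 209A, 222A, 232A, 235A, 239A or 240A), at differences of 1.59 to 1.69 and adjusted p from 0.0505 to 0.0559. With voom and sample quality weights the difference was 0.64 (adjusted p = 0.215).

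Sb/Sb against monogyne SB/SB, a comparison added after the data were seen, gave an InR-2 difference of 1.68 ± 0.56, or 3.2-fold, which passed (adjusted p = 0.0168, edgeR). In this comparison 43.2% of all genes passed. Without animal 104G the difference was 1.35 and the adjusted p 0.0538 (edgeR), and leaving out any other library kept the call. Polygyne against monogyne ovaries of the same SB/SB genotype gave 2.04 ± 0.58, or 4.11-fold, which did not pass (adjusted p = 0.0581, edgeR), where 1.05% of genes did. It passed without any 1 of 107E, 19D, 20D or 30E (lowest adjusted p 0.0308, edgeR), and without 1E it was 1.65 (adjusted p = 0.314, edgeR). DESeq2, which called 8.97% of genes there, put the adjusted p with all libraries at 0.0091, while voom with quality weights gave a difference of 0.51 (adjusted p = 0.495). These comparisons share the same 8 monogyne libraries.

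InR-1 was also lowest in monogyne ovaries, and its highest group was Sb/Sb. Monogyne ovaries ran from 0.239 CPM through a median of 0.658 to 1.54 (mean 0.737 ± 0.426, SD, n = 8). Polygyne SB/SB ovaries ran from 0.317 through 1.19 to 7.62 CPM (mean 2.74 ± 3.07, SD, n = 7), and SB/Sb ovaries from 0.428 through 1.46 to 6.97 (mean 2.22 ± 2.17, SD, n = 8). Sb/Sb ovaries ran from 1 through 2.7 to 8.57 CPM (mean 3.57 ± 2.62, SD, n = 8). Above the highest monogyne ovary were 2 of 7, 4 of 8 and 6 of 8 of these groups, and no polygyne ovary was below the lowest. InR-1 rose in Sb/Sb against monogyne SB/SB, the comparison added after the data were seen, by 2.31 ± 0.64 (log2 ± SE), or 4.95-fold (adjusted p = 0.00583, edgeR). In this comparison 43.2% of all genes passed. The InR-1 call held without any single library of the 2 groups (1.98 to 2.55). SB/Sb against monogyne SB/SB gave 1.64 ± 0.63 (adjusted p = 0.0594, edgeR) and polygyne against monogyne SB/SB gave 1.97 ± 0.65 (adjusted p = 0.0787, edgeR), neither past the threshold. The former passed without any 1 of 107A, 19A or 20A (lowest adjusted p 0.0375, edgeR) and the latter without 20D (0.045). Without 104A the former was 1.10 (adjusted p = 0.206, edgeR), and without 1E the latter was 1.44 (adjusted p = 0.383, edgeR). With all libraries, DESeq2 put these adjusted p at 0.03, where it called 27.5% of genes, and at 0.0274, where it called 8.97%. Voom with quality weights gave differences of 0.36 (adjusted p = 0.64) and 0.67 (adjusted p = 0.495). The number of genes detected moved with InR-1 across the 31 ovaries (r = 0.46, adjusted permutation p = 0.0354 over 8 relations to depth). Taken as deviations from group means that r was 0.13. For InR-2, r with genes detected was 0.29 and rho 0.41 (adjusted permutation p = 0.287 and 0.0598). Without 1E, 16C and 16D these were 0.43 and 0.48 (adjusted permutation p = 0.0573 and 0.0284), and as deviations from group means, over all 31 ovaries, r was 0.04. The part of gene detection in the group differences was not tested for either receptor.

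Among polygyne ovaries, no difference between supergene genotypes passed for either receptor. SB/Sb minus SB/SB was -0.39 for InR-2 (95% interval -1.49 to 0.7) and -0.33 for InR-1 (-1.56 to 0.89), with 1.66% of genes called. Sb/Sb minus SB/Sb was 0.03 for InR-2 (-1.03 to 1.09) and 0.67 for InR-1 (-0.52 to 1.86), with 0.139% called. Sb/Sb minus SB/SB was -0.36 for InR-2 (-1.45 to 0.73) and 0.33 for InR-1 (-0.89 to 1.56), with 14.1% called. The adjusted p-values ran from 0.723 to 0.997 (edgeR). Each of these intervals holds changes of more than 2-fold in at least 1 direction. These fits take no account of the title number. With it as a block, Sb/Sb minus SB/SB turned to 0.24 for InR-2, the other differences kept their sign, and none passed (edgeR).

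**Figure D2:**
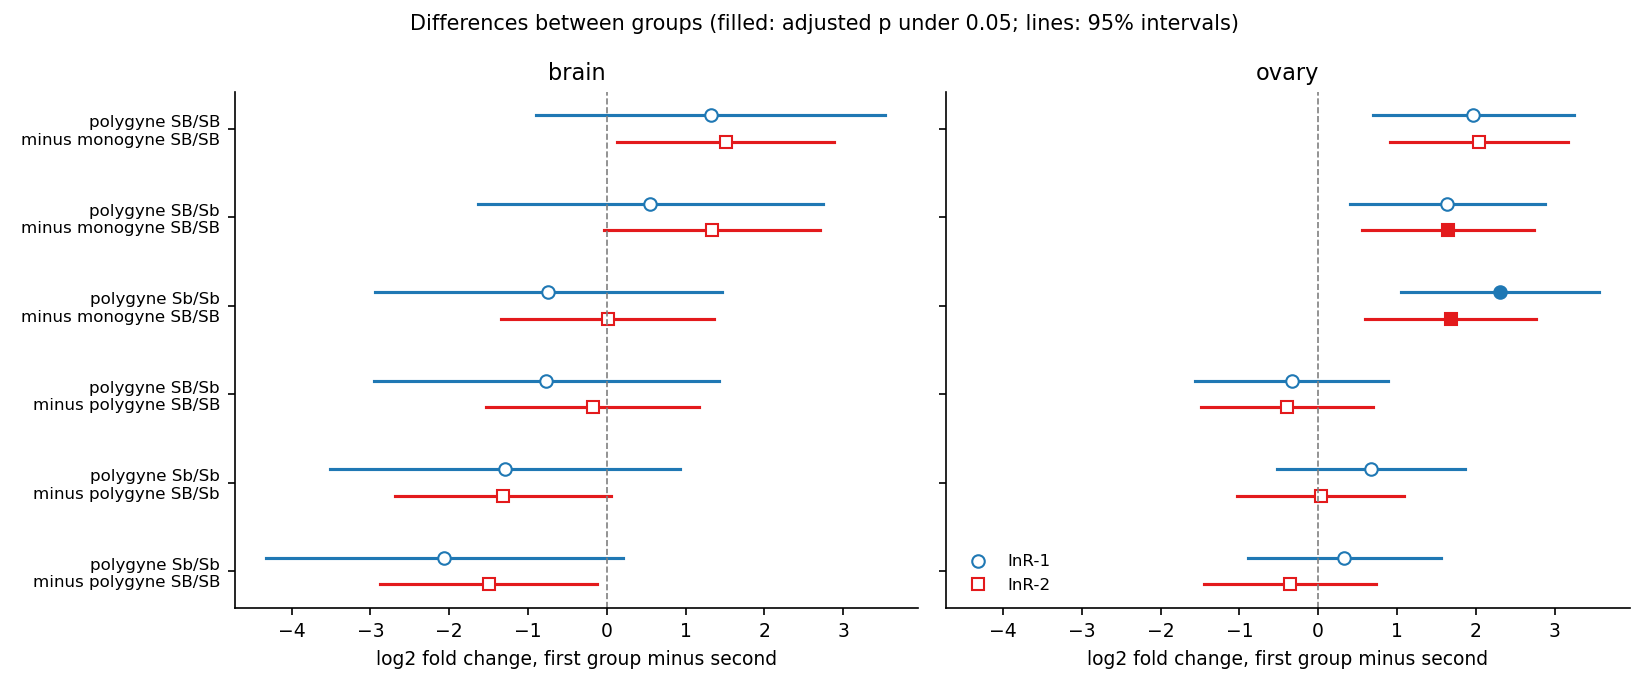
Log2 fold change of each receptor between groups in the brain and the ovary (first group minus second), with 95% intervals as lines; filled markers passed an adjusted p of 0.05 in edgeR. In the ovary 3 markers are filled, all against monogyne SB/SB, and in the brain none.

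The high InR-2 ovaries came from all 3 polygyne genotypes and from 5 of the 9 title numbers. The highest were 16C (SB/Sb) at 57.6 CPM, 1E (SB/SB) at 51.1 and 16D (SB/SB) at 48.6. After them came 104G (Sb/Sb) at 42.2 CPM, 15G (Sb/Sb) at 30.1, 104A (SB/Sb) at 25.8, 15D (SB/SB) at 25.5 and 5G (Sb/Sb) at 22.1, and the next ovary was at 13.4. These 8 were among the 11 ovaries of the numbers 1, 5, 15, 16 and 104, and none of the 12 ovaries of the numbers 19, 20, 30 and 107 exceeded 13.4 CPM. The numbers were split here by whether they held 1 of these 8, so the split is no test of grouping by number. Within a number, 16G was at 8.45 CPM against 16C and 16D, and 15A at 5.43 against 15D and 15G. Every p-value here treats animals of 1 number as separate. A test chosen after the values were seen compared the spread itself, as the mean absolute deviation from the group median of log2 CPM. For InR-2 in the ovary it was 0.18 in monogyne against 1.27 in SB/SB, 0.91 in SB/Sb and 0.83 in Sb/Sb. The exact two-sided permutation p-values were 0.00715, 0.00218 and 0.00622, which adjusted over all genes came to 0.408, 0.057 and 0.0953 and did not pass. Scaled by library totals only, the SB/Sb comparison did pass (difference in deviation 0.79, adjusted exact permutation p = 0.0466). A wider spread at an unadjusted exact permutation p under 0.05 was found for 10.9%, 19.6% and 24% of all genes in these comparisons. InR-1 in the ovary deviated by 0.52 in monogyne and by 1.15, 1.03 and 0.87 in the polygyne groups (unadjusted exact permutation p = 0.181, 0.0825 and 0.15). In the brain, no spread comparison passed for either receptor (unadjusted exact permutation p from 0.199 to 0.952, beside 12%, 5.6% and 2.66% of genes in SB/SB, SB/Sb and Sb/Sb).

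In the brain both receptors varied widely from animal to animal, and no group difference passed. InR-1 ran from 0.448 CPM through a median of 1.02 to 10.5 in monogyne brains (mean 3.04 ± 3.94, SD, n = 8) and from 0 through 2.11 to 33.8 in polygyne SB/SB (mean 7.46 ± 12.3, SD, n = 8). SB/Sb brains ran from 0 through 1.41 to 20.9 CPM (mean 4.23 ± 6.88, SD, n = 8) and Sb/Sb brains from 0 through 0.983 to 5.39 (mean 1.83 ± 1.99, SD, n = 8). All 4 groups overlapped, and the highest brains were 1E at 33.8 CPM, 16C at 20.9 and 19D at 18.6. InR-1 had 0 reads in 4 brains (104D, 107A, 15G and 16D), where a count of 0 allows up to 0.157 to 0.23 CPM. These floors and the other count limits cover counting error only.

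InR-2 ran from 0.408 CPM through 2.07 to 11.4 in monogyne brains (mean 3.11 ± 3.51, SD, n = 8) and from 0.841 through 4.54 to 24.8 in polygyne SB/SB (mean 8.59 ± 8.6, SD, n = 8). SB/Sb brains ran from 2.35 through 3.77 to 24.7 CPM (mean 7.42 ± 7.8, SD, n = 8) and Sb/Sb brains from 0.153 through 3.23 to 6.49 (mean 3.11 ± 2.07, SD, n = 8). The groups overlapped here too, with 1E at 24.8 CPM, 16C at 24.7 and 16D at 18 as the highest brains. Brain 16D thus had 300 reads of InR-2 and 0 of InR-1, while 1E and 16C were high in both. The same 3 animals had the highest InR-2 ovaries. Brain 1E had the lowest total of all brains and 16D the fewest genes detected, at 9319, and all 3 had 0 reads of VgR, as did the monogyne brain 235A.

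Of the 6 brain comparisons, the widest InR-2 difference was polygyne against monogyne SB/SB at 1.51 ± 0.70 (log2 ± SE; 95% interval 0.13 to 2.89). Its adjusted p was 0.249 (edgeR), with 0.00934% of genes called. Next was Sb/Sb against SB/SB at -1.5 ± 0.70 (-2.88 to -0.12; adjusted p = 0.275, edgeR), with 0.962% called. For InR-1 the widest was Sb/Sb against SB/SB at -2.06 ± 1.16 (-4.33 to 0.21; adjusted p = 0.381, edgeR). SB/Sb against SB/SB gave -0.77 for InR-1 and -0.18 for InR-2, with 0.252% of genes called, and Sb/Sb against SB/Sb gave -1.29 and -1.32, with 0.159% called. SB/Sb against monogyne SB/SB gave 0.55 and 1.33, with 0.215% called. Sb/Sb against monogyne SB/SB gave -0.74 and 0.01, with 0.738% called. Over all 12 brain tests the adjusted p-values ran from 0.249 to 1 (edgeR). Brain 1E carried much of the InR-1 value in polygyne against monogyne SB/SB, which was 1.32 with it and 0.30 without it, and in Sb/Sb against SB/SB, which was -1.03 without it. Without monogyne brain 207A, InR-2 was 2.21 (adjusted p = 0.0919, edgeR) in polygyne against monogyne SB/SB and 2.02 in SB/Sb against monogyne SB/SB. Without 233A, InR-1 in Sb/Sb against monogyne SB/SB was -0.12. Without brain 16C, Sb/Sb against SB/Sb was -0.06 for InR-1 and -0.71 for InR-2, and SB/Sb against monogyne SB/SB was -0.67 and 0.73. The scatter between animals of a group was large. The fitted biological coefficient of variation in the brain was 1.45 for InR-1 and 0.912 for InR-2. The median over all genes was 0.51, and 91.8% and 78.9% of genes lay lower than these receptors. In the ovary the coefficient was 0.809 for InR-1 and 0.727 for InR-2, against a median of 0.347, with 89.6% and 85.8% of genes lower. Genes of like counts were not compared separately. InR-1 in the brain also moved with the number of genes detected (r = 0.49, rho = 0.50, adjusted permutation p = 0.0354 and 0.016, n = 32), and its part in the levels was not tested.

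InR-2 was higher in the ovary than in the brain. In 27 of 31 animals the ovary had the higher CPM, the exceptions being 107A, 19D, 207A and 5A. The log2 difference, brain minus ovary, ran from -6.83 in 15G, whose brain had 2 reads, through a median of -1.22 to 0.93 in 207A. The mean over the 4 groups was -1.56 ± 0.30 (log2 ± SE), or 2.94-fold (adjusted p = 2.11e-05, edgeR with the animal as a block), where 82% of all genes passed in either direction. The median over all genes in this comparison was -0.16, and InR-2 lay -1.40 from it (-1.39 with RLE scaling). By group, InR-2 was lower in the brain by 1.44 on the log2 scale in monogyne SB/SB (adjusted p = 0.032, edgeR) and by 2.46, or 5.5-fold, in Sb/Sb (adjusted p = 0.00117, edgeR), with 67.3% and 64.5% of genes called. In polygyne SB/SB the difference was -1.14 (adjusted p = 0.105, edgeR) and in SB/Sb -1.19 (adjusted p = 0.0653, edgeR), with 64% and 63.2% called. DESeq2 called both (adjusted p = 0.0498 and 0.0305), as it did 67.8% and 67.6% of genes. All 8 Sb/Sb animals had more InR-2 in the ovary.

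**Figure D3:**
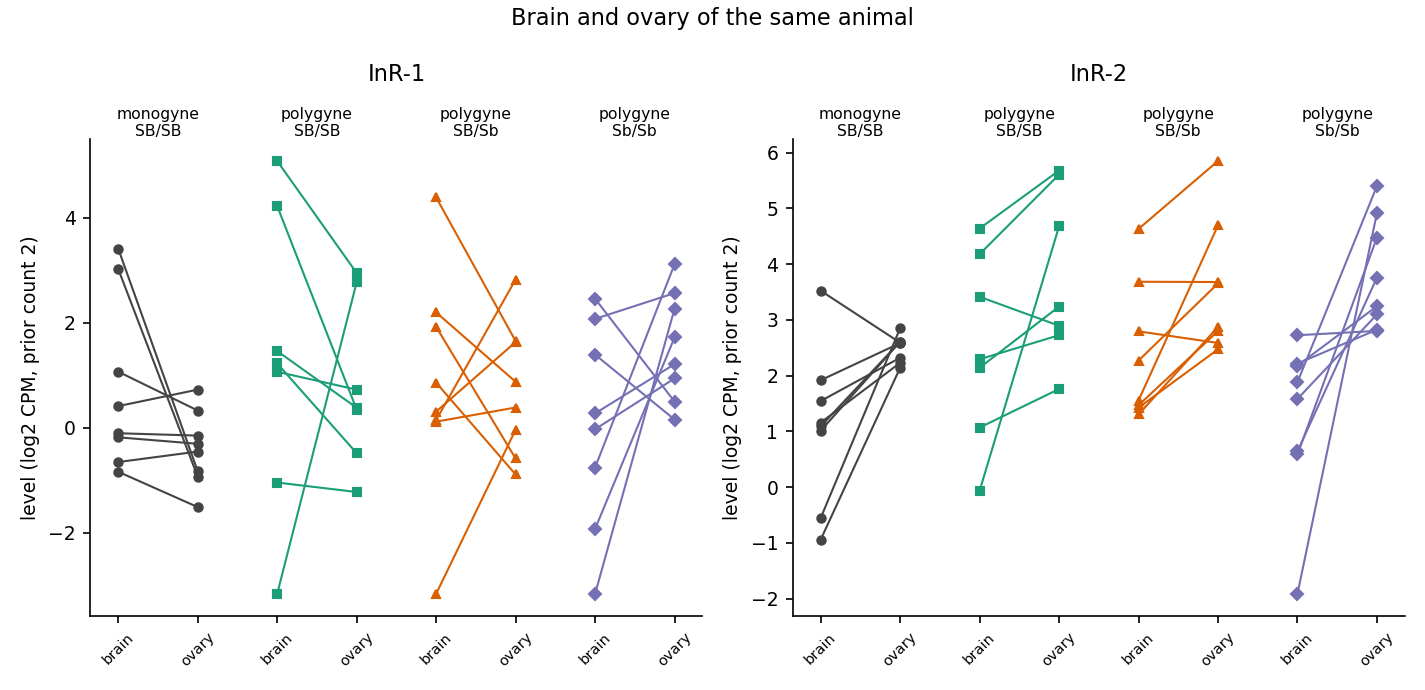
Level of each receptor in the brain and the ovary of the same animal (log2 CPM with a prior count of 2); each line joins the tissues of 1 animal, for 31 animals in 4 groups. InR-2 lines slope up towards the ovary in 27 of 31 animals, while InR-1 lines run in both directions.

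InR-1 had no such common direction. It was higher in the brain in 18 of 31 animals: 6 of 8 monogyne, 6 of 7 polygyne SB/SB, 4 of 8 SB/Sb and 2 of 8 Sb/Sb. Brain minus ovary averaged 0.2 ± 0.54 (log2 ± SE; adjusted p = 0.734, edgeR), from 1.08 in monogyne SB/SB, 1.04 in polygyne SB/SB and 0.21 in SB/Sb to -1.52 in Sb/Sb, none past the threshold (adjusted p from 0.22 to 0.877, edgeR). Whether a group comparison differed between tissues was tested as an interaction for both receptors, and none passed (adjusted p from 0.314 to 1, edgeR). Such interactions were called for 0% of genes in polygyne against monogyne SB/SB, 0.0508% in SB/Sb against monogyne SB/SB, 0.0254% in SB/Sb against SB/SB, 0% in Sb/Sb against SB/Sb and 6.74% in Sb/Sb against SB/SB. The widest was InR-1 in Sb/Sb against monogyne SB/SB, at -2.6 ± 1.46 for the brain effect minus the ovary effect (adjusted p = 0.331, edgeR), with 3.96% of genes called. No relation between a receptor's level in the brain and in the ovary of the same animal passed. Over 31 animals r was -0.07 and rho -0.04 for InR-1 (permutation p = 0.724 and 0.822). For InR-2 r was 0.27 and rho 0.25 (permutation p = 0.146 and 0.168, adjusted over 4 relations 0.194 and 0.224), and without animals 1E, 16C and 16D, left out after seeing the data, r was -0.20.

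The levels of the pair went together across ovaries, as did those of many ovary genes with either receptor. Over the 31 ovaries r was 0.72 and rho 0.65 (permutation p = 1e-05, the smallest that 100000 permutations can give, and 0.0001; adjusted over 4 relations 4e-05 and 0.0004). Without 104G and 1E, the ovaries farthest from the median of InR-1, r was 0.64, and as deviations from group means it was 0.65. By Spearman's rho of such deviations (0.62 for the pair), InR-2 ranked only 939 of 10796 genes in likeness to InR-1, and InR-1 ranked 1593 in likeness to InR-2. An absolute rho of at least 0.6 was held by 18.8% of genes with InR-1 and by 28.8% with InR-2. Within the 23 polygyne ovaries r was 0.68 (permutation p = 0.0005), and within the 8 monogyne ovaries it was -0.22 (permutation p = 0.601). Across the 32 brains r was 0.45 and rho 0.42 (permutation p = 0.00985 and 0.0178, adjusted 0.0197 and 0.0356). Without 1E and 16C, the brains farthest from the median of InR-1, r was 0.27 (permutation p = 0.158). Without 16D as well, left out after seeing the data, it was 0.44 (permutation p = 0.0167, adjusted 0.0333), so the brain value depended on which of these animals entered. Within a library, InR-2 had more reads than InR-1 in 31 of 31 ovaries and in 24 of 32 brains, with InR-1 ahead in 7 brains and 1 equal. Gene lengths were not available, so this does not compare their levels. The log2 ratio of InR-2 to InR-1 reads was 2.99 ± 0.86 (SD) in monogyne ovaries, 3.09 ± 1.52 in polygyne SB/SB, 2.90 ± 0.89 in SB/Sb and 2.28 ± 0.44 in Sb/Sb. In brains it was 0.34 ± 1.48, 1.98 ± 3.31, 1.67 ± 2.27 and 1.28 ± 1.65. In the 4 brains with 0 InR-1 reads (104D, 107A, 15G and 16D) the ratio rests on the pseudocount of 1. All are polygyne, 104D and 16D of them SB/SB, and 16D had the highest ratio, at 8.23. None of 12 group comparisons of this ratio passed (exact permutation tests, adjusted p from 0.522 to 0.894), the lowest unadjusted exact p being 0.0556 for Sb/Sb against monogyne SB/SB in the ovary.

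**Figure D4:**
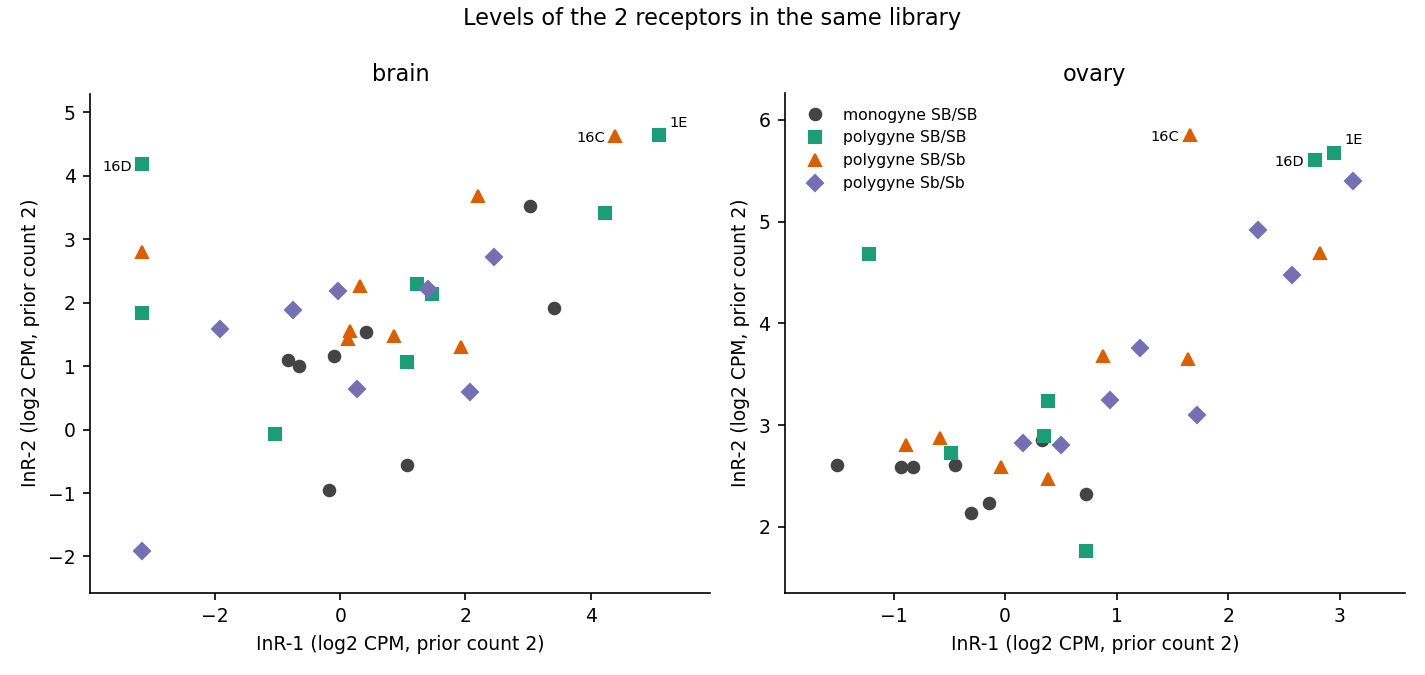
InR-2 against InR-1 in the same library (both in log2 CPM with a prior count of 2) for 32 brains and 31 ovaries; colours and shapes mark the groups, and animals 1E, 16C and 16D are named. The ovaries follow a rising band (r = 0.72), while brain 16D has high InR-2 and no InR-1.

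In the ovary InR-2 followed VgR closely, a relation examined after the data were seen. VgR lay between 41.7 and 78.1 CPM in monogyne ovaries (median 51.5) and between 12.5 and 564 in polygyne ovaries (median 71.7, n = 23). Its highest ovaries were 104G at 564 CPM, 1E at 508, 16C at 452 and 16D at 446, the same 4 animals that were highest in InR-2. Across 31 ovaries r between InR-2 and VgR was 0.91 and rho 0.86 (permutation p = 1e-05 each, the smallest possible, adjusted over 4 relations 4e-05). Without 104G and 1E r was 0.87, and as deviations from group means r was 0.92 and rho 0.95. Within polygyne ovaries r was 0.92, and within the 8 monogyne ovaries it was 0.42 (permutation p = 0.308). InR-1 and VgR in the ovary gave r = 0.63 and rho = 0.54 (adjusted permutation p = 0.00032 and 0.00452), and r = 0.50 without 104G and 1E. VgR itself did not pass in any of the 3 ovary comparisons with monogyne SB/SB, at 1.97 ± 0.67, 1.29 ± 0.64 and 1.48 ± 0.65 (log2 ± SE) for SB/SB, SB/Sb and Sb/Sb (adjusted p = 0.0842, 0.136 and 0.0634, edgeR). In the brain VgR was scarce, at 0 to 19.5 CPM, and went the other way from InR-2 (r = -0.58, rho = -0.51, adjusted permutation p = 0.000707 and 0.00452, n = 32). Without 1E, 16C and 16D that r was -0.23 (adjusted permutation p = 0.283).

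**Figure D5:**
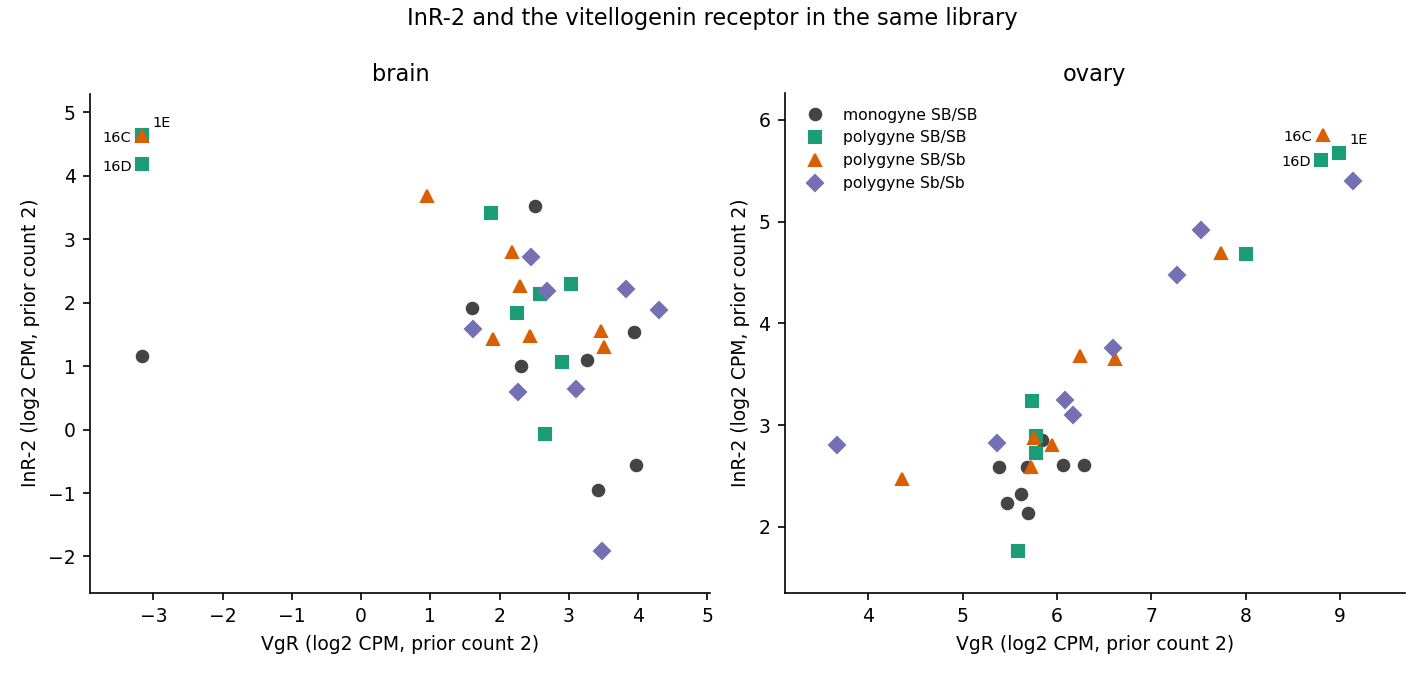
InR-2 against the vitellogenin receptor VgR in the same library (both in log2 CPM with a prior count of 2) for 32 brains and 31 ovaries; colours and shapes mark the groups. In the ovary the points follow a line (r = 0.91), with the monogyne ovaries in a tight group near its low end, and in the brain 1E, 16C and 16D have 0 VgR reads and the highest InR-2.

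VgR was one of many ovary genes with the InR-2 pattern. Ranked by Spearman's rho over 31 ovaries as deviations from group means, it was number 9 of 10796 other genes. The 3 closest, LOC105202240, LOC105205737 and LOC105194585, each had a rho of 0.95, and 191 genes had a rho of at least 0.9 and 18 of at most -0.9. The closest gene, LOC105202240, lay between 43.6 and 65.6 CPM in monogyne ovaries and between 31.5 and 348 in polygyne ovaries. For InR-1 in the ovary the closest were LOC105201903 (rho = 0.84), LOC105195208 (0.83) and LOC105200310 (0.82), and no gene reached 0.9. LOC105201903 ran from 1.92 to 3.65 CPM in monogyne and from 2.22 to 19.1 in polygyne ovaries. LOC105200310 had 0 reads in all monogyne ovaries and up to 4.55 CPM in polygyne ones. Across 32 brains the closest to InR-1 were LOC105194168 (0.86), LOC105196445 (0.84) and LOC105207192 (0.83). The closest to InR-2 there were LOC105205641 (0.72), LOC105198473 (0.72) and LOC105204683 (0.71). The names available do not say what these genes do, and libraries share depth and RNA quality, so these values describe likeness only.

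Reads of overlapping genes could not be told apart, since Smart-seq2 does not keep the strand. In the gene table InR-1 overlaps the non-coding gene LOC113002941. InR-2 overlaps the protein-coding genes LOC113003559 and LOC120357932 and the non-coding gene LOC120357933. None of these has a row in the count files. Overlap was judged by the span of each gene, and whether exons overlap was not examined. The nearest genes with tested counts were compared in the ovary and in the brain. In SB/Sb against monogyne SB/SB ovaries, LOC105208024 and LOC105207966 beside InR-1 gave -0.21 and 0.43 (adjusted p = 0.168 and 0.189, edgeR). LOC105194411 beside InR-2 gave 0.10 (adjusted p = 0.711, edgeR). In Sb/Sb against monogyne SB/SB ovaries, where 43.2% of genes passed, LOC105208024 fell by 0.36 on the log2 scale (adjusted p = 0.0108, edgeR). LOC105207966 gave 0.53 (adjusted p = 0.0734, edgeR) and LOC105194411 gave 0.26 (adjusted p = 0.26, edgeR). LOC105208024 also passed in Sb/Sb against polygyne SB/SB ovaries, at -0.44 (adjusted p = 0.0125, edgeR), with 14.1% of genes called. In the brain, LOC105207966 passed in Sb/Sb against monogyne SB/SB, at 1.00 (adjusted p = 0.0163, edgeR), with 0.738% called. No other neighbour comparison passed in either tissue.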

How the data were processed

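Per the labels' protocols, RNA of single brains and ovaries was made into Smart-seq2 libraries, which use PCR and no molecular identifiers. Per the submitters' processing notes, reads went through Trimmomatic 0.32, STAR 2.5.3a and featureCounts; build, annotation and strand setting are not given in the sources used here. Raw counts per gene, without normalization, were deposited by the authors as 1 file per library. Animal 104D's ovary was left out. Tests used edgeR 4.0.16 in R 4.3.3: TMM, filterByExpr with a minimum count of 10 per group, 1 coefficient per group, quasi-likelihood F-tests and Benjamini-Hochberg adjustment over all 10704 brain or 10797 ovary genes, with a call under 0.05. For tissue comparisons all 63 libraries were fitted together, blocked by the animal that the title codes name. A standard error is the fold change over the square root of F. Log2 CPM used a prior count of 2 and the read ratio a pseudocount of 1. Alternatives were DESeq2 1.42.0, limma 3.58.1 voom, other scalings and left-out libraries. The edgeR fit was also run on simulated counts, with 1 common spread for all genes and known changes read in Sb/Sb against polygyne SB/SB. That setting does not cover the receptors' wider scatter or the comparisons with monogyne gynes.

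The receptors, lists and comparisons were chosen with earlier results of these data known. Genes were named by the UNIL_Sinv_3.0 table, which gives synonyms for 9 genes of the files. The lists of insulin and TOR, reproduction and cell marker genes matched 2, 1 and 1 genes. The genes named as most alike are the 3 with the highest rho per receptor and tissue. Nothing says which animals share a colony, and p-values treat animals as separate, which was not shown to hold among those that share a title number.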

Additional observations from a re-analysis of the deposited data

Results flagged for a closer look

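Among the 16 groups of libraries (2 receptors, 2 tissues, 4 groups), 5 held a library set apart from the rest by Dixon's test on CPM, 3 of them the same animal. Chance flags about 1 of 20 groups when values are normally distributed, which these skewed levels are not. Over all genes tested, the same test on CPM set a library apart in 14.6% of groups on average, and in 21.1% in SB/Sb brains and 13.2% in SB/Sb ovaries. On log2 CPM none of the 5 was set apart, and only InR-2 in Sb/Sb brains was. Animal 16C was apart in SB/Sb for InR-1 in the brain, at 20.9 CPM against 0 to 4.48 in the other 7 brains. It was also apart for InR-2 in the brain, at 24.7 CPM against 2.35 to 12.7, and for InR-2 in the ovary, at 57.6 CPM against 5.43 to 25.8. Without 16C the mean InR-2 level of SB/Sb ovaries was 10.9 ± 7.21 CPM (SD, n = 7). Animal 104A was apart for InR-1 in SB/Sb ovaries, at 6.97 CPM against 0.428 to 3.03. Animal 207A was apart for InR-2 in monogyne brains, at 11.4 CPM against 0.408 to 3.66, while its ovary, at 5.91 CPM, lay within the monogyne range.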

How the results depend on the processing

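The receptors' low counts limit precision, most of all for InR-1, with under 10 reads in 9 brains and 5 ovaries. Of 381 results recomputed under alternatives, 345 kept their direction and side of the threshold. They include all under RLE scaling, no filter on low counts and a pseudocount of 0.5. Some alternatives left out a set of libraries. Fits that left out 1 library at a time, under which several ovary calls changed, are not among the 381. The causes of the changes below were not tested.

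DESeq2 passed 5 that edgeR did not: in the ovary, polygyne against monogyne SB/SB for InR-1 (1.97) and InR-2 (2.03) and SB/Sb against monogyne for InR-1 (1.64), and brain minus ovary for InR-2 in polygyne SB/SB (-1.13) and SB/Sb (-1.16). Fits of only the groups compared passed the ovary values 2.05 for InR-2 in polygyne against monogyne SB/SB and 1.66 for InR-1 in SB/Sb against monogyne, and turned InR-2 in brain Sb/Sb against monogyne to -0.01. The library total as a covariate passed InR-2 in polygyne against monogyne SB/SB ovaries (2.12) and turned brain values to -0.43 (InR-1, SB/Sb against monogyne) and -0.08 (InR-2, Sb/Sb against monogyne). Voom with quality weights lost InR-2 in SB/Sb against monogyne ovaries (0.64) and kept both Sb/Sb calls (1.79 for InR-1, 1.09 for InR-2). It turned InR-1 in brains to -0.17 (polygyne against monogyne SB/SB) and 0.19 (SB/Sb against polygyne SB/SB), and InR-2 in ovaries to 0.13 in SB/Sb and 0.57 in Sb/Sb against SB/SB. Without brains 1E, 16C, 16D and 30A, chosen after seeing the data, InR-2 in SB/Sb against SB/SB was 0.26, InR-1 in SB/Sb against monogyne -0.58, and the InR-1 interaction for polygyne against monogyne SB/SB 0.44. With the ovary of 104D the ratio differences were -0.29 (polygyne against monogyne SB/SB) and 0.20 (SB/Sb against SB/SB). That ovary had 0 reads of either receptor, so the pseudocount alone sets its ratio and these changes of sign carry no measurement.

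Same-numbered polygyne animals did not meet the rule for pairs: over 22 brain pairs r ran from -0.07 to 0.39 and over 20 ovary pairs from -0.24 to 0.53, with 9 and 14 above 0.1. Their medians were 0.07 and 0.27, against -0.01 and -0.02 for pairs of other numbers, so ovaries of 1 number were not shown to be independent. With the title number as a replicate block, SB/Sb against SB/SB brains gave 0.79 for InR-1 and 0.36 for InR-2, and Sb/Sb against SB/SB ovaries 0.24 for InR-2, opposite in sign to the fit without it. Sb/Sb against SB/SB brains gave -0.65 for InR-1 and -0.84 for InR-2, ovaries 0.72 for InR-1, and InR-2 in ovaries -0.06 (SB/Sb against SB/SB) and 0.31 (Sb/Sb against SB/Sb), and no call changed. Without the animal as a block, InR-2 brain minus ovary in monogyne SB/SB was -0.84 and no longer passed, and InR-2 interactions turned to -0.50, 0.16 and -0.34 (polygyne against monogyne SB/SB, then SB/Sb against polygyne SB/SB and monogyne). Among relations, the brain InR-1 to InR-2 r was 0.27 without its 2 farthest animals and 0.44 without 1E, 16C and 16D, brain to ovary InR-2 turned to -0.20 without 1E, 16C and 16D, and the ovary InR-2 to library total r turned to 0.06 within groups. With library totals only, brain InR-2 spread differences from monogyne turned to -0.0492 in SB/Sb and -0.000259 in Sb/Sb, and the ovary InR-2 difference for SB/Sb passed (0.79).

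Leaving out 1 library at a time, the differences against monogyne ran in the ovary from 1.65 to 2.22 (InR-2, SB/SB), 1.44 to 2.21 (InR-1, SB/SB), 1.02 to 1.77 (InR-2, SB/Sb), 1.10 to 1.88 (InR-1, SB/Sb) and 1.35 to 1.82 (InR-2, Sb/Sb). Brain differences ran from -0.67 to 1.17 (InR-1, SB/Sb against monogyne), -2.0 to 0.26 (InR-1) and -0.79 to 0.26 (InR-2, both SB/Sb against polygyne SB/SB), then -0.20 to 0.70 (InR-2) and -1.16 to -0.12 (InR-1) for Sb/Sb against monogyne. Between polygyne ovaries they ran from -0.87 to 0.20 (InR-1) and -1.01 to 0.00 (InR-2) for SB/Sb against SB/SB, 0.00 to 0.87 (InR-1) and -0.69 to 0.03 (InR-2) when Sb/Sb was set against polygyne SB/SB, and 0.34 to 1.21 (InR-1) and -0.30 to 0.68 (InR-2) when it was set against SB/Sb.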
